A study of Mus musculus with 2 samples.

Results

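Vascular endothelial genes were examined in whole mouse kidneys with and without a conditional deletion directed at the proximal tubule. The group is a list of 40 gene symbols for endothelial receptors, junction proteins, surface proteins, transcription factors and activation or lymphatic markers. The rule takes genes by name and uses no measured value, although the list was drawn up with earlier results of these data known. Rows of the read count table with one of these symbols were taken, which found 38 of the 40 among 45777 genes. The symbols Cldn5x and Clec14ax matched no row, and no other gene was put in their place. There were 2 RNA-seq libraries, 1 from control mice and 1 from mice with an Inmt knockout restricted to proximal tubules (CKO). Both groups ate standard chow on an alternating light and dark schedule and received no treatment. The Cre driver, the genotype of the controls, the age, the sex and the number of animals behind each library are not given in the sources used here. Endothelial cells are not the cells the knockout is directed at.

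Blood vessels are lined by endothelial cells, and the kidney has several kinds: fenestrated glomerular capillaries, peritubular capillaries, vasa recta, arteries, veins and a small lymphatic network. Vascular endothelial growth factor (VEGF) made by podocytes and tubule cells acts on endothelial receptors and maintains the capillaries, while the angiopoietins act on the Tie receptors and set how quiescent the vessel is. Inflamed endothelium displays adhesion proteins that capture leukocytes from the blood.

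Counted reads numbered 33618076 in control and 38136616 in CKO kidney. Reads were scaled by the trimmed mean of M-values (TMM) and are given as counts per 1000000 reads (CPM). Log2 ratios set CKO over control after adding 0.5 CPM to both, so the ratio of a gene with few reads is understated. Fold differences are ratios of CPM, with the exact 95% interval of counting error. Each group is 1 library, so these intervals compare the libraries and leave out the spread between animals, and no test of the conditions was possible. Inmt itself was 4.73-fold lower in the CKO library (interval 4.59 to 4.88), at 587 CPM in control and 124 CPM in the CKO library. Of the marker lists for other cells, all 8 injured tubule markers and 8 of 10 monocyte and macrophage markers were at least 2-fold higher in the CKO library. None (0) of 8 proximal tubule markers was, and 3 of them were at least 2-fold lower. Of the injured tubule markers, only 4 reached 1 CPM in both libraries. The others (Lcn2, Krt19, Krt20 and Sox9) reached it in the CKO library alone. The spread of these lists around the endothelial genes is shown further on.

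Most of the endothelial genes had similar levels in both libraries. Of the 38 genes found, 35 reached 1 CPM, and each of the 35 did so in both libraries, so none passed that minimum through 1 library alone. Of these, 4 were 2-fold or more higher in the CKO library (Pdpn, Icam1, Angpt2 and Prox1), or 11.4%, where 10.3% of all 15129 expressed genes were, so this share was near the background. None (0) of the 35 was at least 2-fold lower, against 1.66% of all expressed genes. Their median log2 ratio was 0.13, and that of all expressed genes was 0.01. The counting interval lay above 1 for 18 of the 35 and below 1 for 5, whereas it lay above 1 for 36.8% and below 1 for 34.7% of all expressed genes. In a whole organ, a change in the number of endothelial cells and a change in RNA per cell cannot be told apart.

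**Figure D1:**
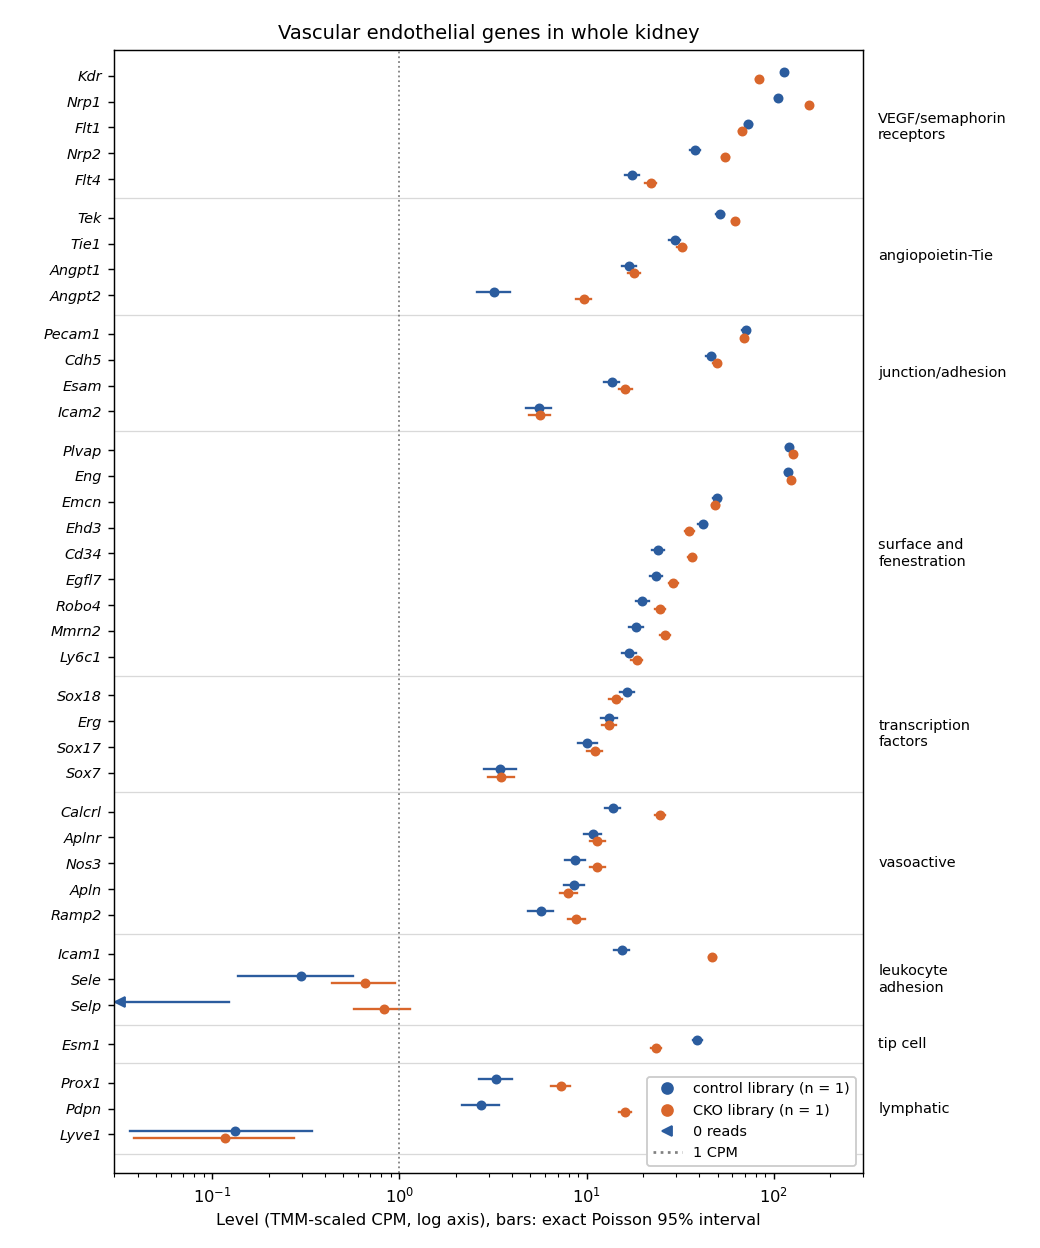
Level of each of the 38 endothelial genes in the control library (blue) and the CKO library (orange), in TMM-scaled CPM on a log axis, with exact Poisson 95% intervals and genes grouped by role. Most pairs of points lie close together, while Icam1, Angpt2, Pdpn and Prox1 lie to the right and Esm1 and Kdr to the left in the CKO library, and Sele, Selp and Lyve1 stay below 1 CPM in both.

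The defining markers of endothelium were present in both libraries. Pecam1, the adhesion protein CD31 of endothelial junctions, had 2136 control reads and 2965 CKO reads, or 70.9 CPM (exact Poisson interval 68.0 to 74.0) and 69.6 CPM (67.1 to 72.2). Cdh5, the cadherin that holds endothelial cells together, had 46.0 CPM in control and 49.5 CPM in the CKO library, a ratio of 1.08 (1.005 to 1.15). Icam2, an adhesion protein that resting endothelium carries, had 167 and 239 reads, a ratio of 1.01 (0.827 to 1.24). Esam, a tight junction adhesion molecule, was 1.19-fold higher (1.05 to 1.34). The 4 measured junction genes thus spanned log2 ratios of -0.03 to 0.24, and none was 2-fold apart between libraries. The list of 21 other pan-endothelial genes holds the symbols Cldn5 and Clec14a. Cldn5, a tight junction claudin, had 120 and 239 reads, a ratio of 1.41 (1.13 to 1.77) and a log2 ratio of 0.45. Clec14a, a surface lectin, had 387 and 518 reads, a ratio of 0.946 (0.828 to 1.08).

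The surface genes Plvap, Eng and Emcn had the highest levels per gene length of the 38 in both libraries. In the authors' FPKM (fragments per kilobase of gene and depth), Plvap had 46.9 in control and 61.7 in CKO kidney. Plvap forms the diaphragms of fenestrated capillaries, and in CPM it had 120 and 127, a ratio of 1.06 (1.01 to 1.10). Its span overlaps Gtpbp3, with 400 and 774 reads, so a part of its reads is uncertain. Eng, the TGF-beta co-receptor endoglin, had 118 and 123 CPM. It overlaps Fpgs, with 2295 and 2451 reads, so a part of the Eng reads is uncertain as well. Emcn, the endothelial sialomucin endomucin, had 49.9 and 48.5 CPM, a ratio of 0.973 (0.910 to 1.04). On the TMM scale these 3 genes differed by less than 10% between the libraries.

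Other surface genes went further in both directions. Cd34, a sialomucin of capillary and progenitor cells, was 1.52-fold higher in the CKO library (1.39 to 1.66), with 725 and 1559 reads. Mmrn2, an extracellular matrix protein of vessels, was 1.43-fold higher (1.29 to 1.59). Robo4, a guidance receptor that stabilizes vessels, and Egfl7, a secreted factor of vessel walls, were 1.25-fold and 1.23-fold higher. Ehd3, an endocytic recycling protein that marks glomerular endothelium in the kidney, was lower, with 41.8 and 35.4 CPM and a ratio of 0.847 (0.785 to 0.914). Ly6c1 had a ratio of 1.10 (0.980 to 1.23). It has a close copy, Ly6c2, that monocytes express and that had 87 and 154 reads, so the split of reads between the copies is uncertain. None of the 9 measured genes in this role was 2-fold apart.

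The VEGF receptors and their co-receptors separated. Kdr, the main signalling receptor for VEGF-A, had 3431 reads in control and 3542 in the larger CKO library. That is 114 CPM (110 to 118) against 83.2 CPM (80.5 to 86.0), a ratio of 0.730 (0.696 to 0.765). Flt1, a receptor that also traps VEGF in a soluble form, had 72.8 and 67.4 CPM, a ratio of 0.926 (0.875 to 0.979). Flt4, the receptor for VEGF-C that lymphatic and fenestrated vessels carry, was 1.26-fold higher (1.13 to 1.40). The neuropilins, co-receptors for VEGF and semaphorins, were both higher in the CKO library. Nrp1 had 105 control CPM and 155 CKO CPM, a ratio of 1.47 (1.41 to 1.53). Nrp2 had 37.8 and 55.0 CPM, a ratio of 1.45 (1.35 to 1.56). Neuropilins are also made outside endothelium. The sign of Flt1 turned positive when total counts or the authors' TPM or FPKM set the scale, whereas Kdr stayed below 0 and both neuropilins above 0 under every scaling tried. The size of the Kdr difference depended on the scale, with a log2 ratio of -0.45 with TMM, -0.13 with FPKM and -0.03 with TPM.

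In the Tie system, the ligand Angpt2 stood apart. Angpt2 is stored in endothelial cells and released on activation, where it opposes Angpt1 at the Tek receptor. It had 96 control reads and 410 CKO reads, which is 3.19 CPM (2.58 to 3.89) against 9.63 CPM (8.72 to 10.6), a ratio of 3.02 (2.41 to 3.81). Angpt2 lies on chromosome 8 at 18690263 to 18741562 (GRCm38), within the span of Mcph1. Mcph1 had 151 and 326 reads, and whether the counting used strand is not given in the sources used here. Angpt1, the ligand that perivascular cells make to keep vessels quiet, had 16.9 and 17.9 CPM, a ratio of 1.06 (0.945 to 1.19). Tek, the receptor Tie2 and the gene with the most reads in this role, had 51.6 and 61.8 CPM, a ratio of 1.20 (1.12 to 1.28). Tie1, its partner receptor, had a ratio of 1.09 (0.999 to 1.19). For each 100 Angpt1 reads there were 18.9 Angpt2 reads in control and 53.8 in the CKO library, a comparison within libraries that no scaling enters.

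**Figure D2:**
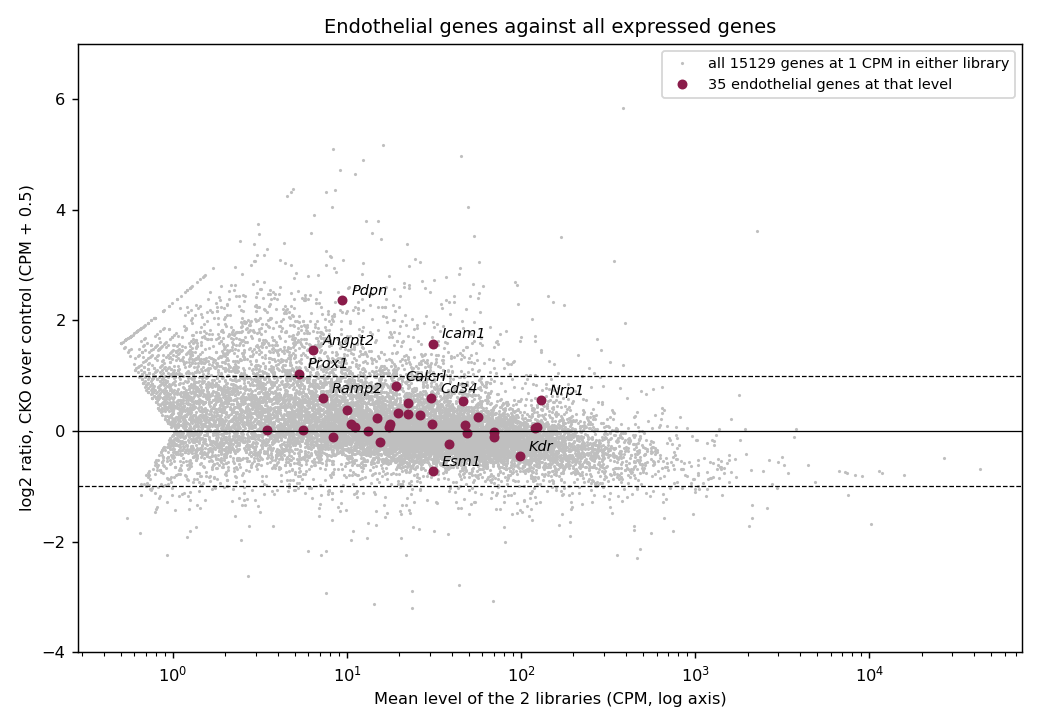
Log2 ratio of CKO over control (CPM + 0.5) against the mean level of both libraries (CPM, log axis) for all 15129 expressed genes (grey) and the 35 expressed endothelial genes (dark red), with dashed lines at 2-fold. Pdpn, Icam1, Angpt2 and Prox1 lie above the upper line, no endothelial gene lies below the lower one, and Esm1 and Kdr are the lowest.

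Endothelial transcription factors had log2 ratios between -0.19 and 0.13. Erg, an ETS factor that maintains endothelial identity, had 396 and 559 reads, or 13.2 and 13.1 CPM, a ratio of 0.998 (0.876 to 1.14). Sox7 and Sox17, SoxF factors of vessel formation and arterial identity, had ratios of 1.01 (0.783 to 1.31) and 1.10 (0.946 to 1.27). Sox18, with the most reads of the 4, was slightly lower, at 16.4 and 14.3 CPM, a ratio of 0.871 (0.773 to 0.983). It turned positive with total counts, where the median of all expressed genes moved to 0.32. For Erg, Sox7 and Sox17 the counting interval included 1.

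Of 5 genes of vessel tone and peptide signalling, 3 had a counting interval above 1 and none (0) below 1. Among all expressed genes, 36.8% had an interval above 1 and 34.7% below 1, and 5 genes are too few to set against these shares. Calcrl, the receptor for adrenomedullin and CGRP, was 1.79-fold higher in the CKO library (1.59 to 2.01), with 414 and 1046 reads. Ramp2, the accessory protein that makes Calcrl an adrenomedullin receptor, was 1.55-fold higher (1.29 to 1.87), with 171 and 375 reads. Both parts of this receptor were thus higher together, and the peptide gene Adm had 207 and 345 reads, a ratio of 1.18 (0.989 to 1.41). Nos3, the endothelial nitric oxide synthase, had 8.67 and 11.4 CPM, a ratio of 1.32 (1.13 to 1.54), and its span overlaps Atg9b, with 5 and 26 reads. For the apelin pair the counting intervals included 1, with a ratio of 0.928 (0.787 to 1.10) for the ligand Apln and 1.06 (0.918 to 1.22) for its receptor Aplnr.

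Leukocyte adhesion genes were higher, but only Icam1 had many reads. Icam1, the integrin ligand that arrests leukocytes on inflamed endothelium, lies on chromosome 9 at 21015940 to 21028814. It had 464 control reads and 2001 CKO reads, or 15.4 CPM (14.0 to 16.9) against 47.0 CPM (45.0 to 49.1), a ratio of 3.05 (2.76 to 3.38). In the authors' TPM, a level per gene length, it was number 19 of the 38 genes in control and number 8 in the CKO library. Sele (E-selectin), which activated endothelium makes, had 9 and 28 reads, a ratio of 2.2 with an interval of 1.01 to 5.30, and stayed below 1 CPM in both. Selp (P-selectin), stored in endothelium and platelets, had 0 control reads and 35 CKO reads. Against a floor of 3 reads in the control library, it was at least 8.25-fold higher, and the 95% counting interval of the ratio began at 6.36. Selp overlaps Gm16548, which had 7 control reads and 0 CKO reads, so the split of reads between them is uncertain. Among 1401 genes with 30 to 59 CKO reads, 101 had 0 control reads and only 34 had 1 to 3, so the bound assumes that the listed 0 is a count, and that was not tested.

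Icam1 is not restricted to endothelium, since leukocytes and injured tubule cells can carry it. The summed level of the 10 monocyte and macrophage markers was 70.3 CPM in control and 301 CPM in the CKO library, led by Lyz2 (18.1-fold higher) and Ccr2 (13.4-fold), and Csf1r had the highest mean CPM of both libraries. The summed level of the 8 injured tubule markers was 380 and 4706 CPM, with the most reads on Spp1. The largest log2 ratios were those of Lcn2 (79.8-fold, 45.5 to 155) and Krt19 (55.1-fold, 31.4 to 107), with 12 control reads each. Without the added 0.5 CPM, Krt20 had the largest ratio, 92.6 (25.4 to 769), on 2 control reads and 262 CKO reads. No marker of either list was at 0. Their part in the Icam1 value was not tested. Of 6 platelet markers, 4 had 0 control reads and the summed level was 4.92 and 4.27 CPM, nearly all of it from Itga2b, the 1 marker at 1 CPM. The other markers with reads went the opposite way, with 4 and 22 reads for Pf4, 0 and 7 for Ppbp and 0 and 2 for Tubb1. Their part in the Selp value was not tested.

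The promoter windows of Icam1, Sele and Kdr are printed to show what stands before 2 adhesion genes that were higher in the CKO library and before the VEGF receptor gene that was lower. They are the 250 bases before a transcript start site from RefSeq (GRCm38.p6), read 5′ to 3′ on the gene's strand. For Icam1 that site is the start of the gene, and for Sele and Kdr it lies inside the annotated gene span. Bases just after the site were found in a second set of transcript sequences for Sele and Kdr but not for Icam1. Capitals mark the matches described next.
Icam1, chr9:21015690-21015939, plus strand: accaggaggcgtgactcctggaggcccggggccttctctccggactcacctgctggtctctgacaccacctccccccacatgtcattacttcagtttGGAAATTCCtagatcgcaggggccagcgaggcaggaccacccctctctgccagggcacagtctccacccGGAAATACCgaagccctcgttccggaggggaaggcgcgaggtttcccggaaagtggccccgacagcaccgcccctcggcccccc
Sele, chr1:164047984-164048233, plus strand: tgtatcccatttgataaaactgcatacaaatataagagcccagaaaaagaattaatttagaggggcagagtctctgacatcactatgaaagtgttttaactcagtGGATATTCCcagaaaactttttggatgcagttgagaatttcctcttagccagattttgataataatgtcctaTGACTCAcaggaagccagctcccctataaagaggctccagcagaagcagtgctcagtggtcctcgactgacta
Kdr, chr5:75978456-75978705, minus strand: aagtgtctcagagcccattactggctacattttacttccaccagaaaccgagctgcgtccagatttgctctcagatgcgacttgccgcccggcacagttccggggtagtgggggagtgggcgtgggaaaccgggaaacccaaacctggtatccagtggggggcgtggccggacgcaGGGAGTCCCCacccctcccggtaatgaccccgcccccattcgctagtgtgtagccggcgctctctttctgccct

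Motifs were searched on both strands of these windows, which the table held for 23 of the endothelial genes. The letters GGNNNTTCC, a loose form of the site that NF-kB factors bind, were searched after the Icam1 window had been read. They occurred in the Icam1 window at -153 to -145 and, on the other strand, at -84 to -76 from the start site, and in the Sele window at -145 to -137. They also occurred in the windows of Selp, Egfl7, Eng and Ly6c1, so in 7 of the 29 windows of these 23 genes, in 15.7% of all 32851 promoter windows and in 18.0% of those of expressed genes. The stricter NF-kB consensus matched Kdr at -74 to -65 and Flt1, and 7.25% of all windows. The AP-1 letters TGANTCA occurred in Sele at -73 to -67 and in Selp, and in 6.75% of all windows. The ETS letters CNGGAAGT occurred in Tie1 and Egfl7, and in 7.58% of all windows. The window before Esm1, the lowest of the endothelial genes, held no match to any of these motifs and is not printed. In the 3 printed windows no 2 motifs overlap. A match is a run of letters and does not show that a factor binds there.

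Esm1 was the lowest of the endothelial genes. It encodes endocan, a secreted proteoglycan that VEGF signalling induces in endothelial tip cells, and it lies on chromosome 13 at 113209659 to 113218104. Esm1 had 1174 control reads and 996 CKO reads, or 39.0 CPM (36.8 to 41.3) against 23.4 CPM (22.0 to 24.9). It was 1.67-fold lower in the CKO library (1.53 to 1.82). Kdr and Esm1 were the 2 genes whose log2 ratio stayed below 0 under every scaling, unit and pseudocount tried. The value nearest to 0 was -0.31 for Esm1 but only -0.03 for Kdr. On the TMM scale Vegfa, the ligand of Kdr, had 303 CPM in control and 223 in the CKO library, a ratio of 0.736 (0.715 to 0.758), close to that of Kdr. As with Kdr, the size depended on the scale, since Vegfa had 153 and 151 in the authors' TPM and 71.9 and 65.9 in FPKM. In CPM, Vegfb had a ratio of 0.873 (0.802 to 0.951). Vegfc, at 1.39 (1.05 to 1.85), and Vegfd, at 1.65 (1.36 to 2.01), were higher. For every Kdr read there were 2.66 Vegfa reads in control and 2.68 in the CKO library.

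Ratios between endothelial genes within a library do not depend on the scaling. For each 100 Pecam1 reads, Kdr had 161 control reads and 119 CKO reads, a ratio of 0.744 (exact interval 0.691 to 0.800). Esm1 had 55.0 and 33.6 reads per 100 Pecam1 reads, a ratio of 0.611 (0.552 to 0.677). Ehd3, the glomerular marker, had 58.9 and 50.9, a ratio of 0.863 (0.785 to 0.948). Emcn had 70.3 and 69.6, so endomucin and CD31 kept their proportion (0.991, 0.908 to 1.08). Icam1 had 21.7 and 67.5 reads per 100 Pecam1 reads, a ratio of 3.11 (2.76 to 3.49), and Cd34 33.9 and 52.6, a ratio of 1.55 (1.39 to 1.72). Pecam1 itself had a ratio of 0.982 on the TMM scale, so these ratios necessarily lie close to the TMM ratios. They are therefore not a separate test of the genes at both ends of the group.

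**Figure D3:**
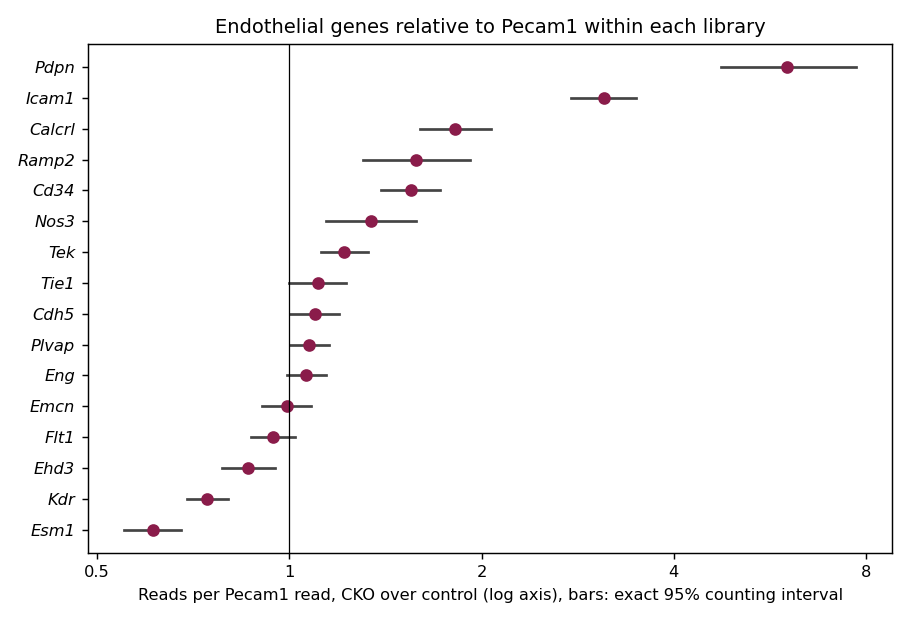
Reads of 16 endothelial genes per Pecam1 read, as the ratio of the CKO to the control library on a log axis, with exact 95% counting intervals. Esm1 (0.611) and Kdr (0.744) lie left of 1, Emcn (0.991) lies on it, and Icam1 (3.11) and Pdpn (6.02) lie farthest right.

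Of the 3 lymphatic genes, Pdpn and Prox1 were higher and Lyve1 was barely detected. Pdpn, the mucin-type protein podoplanin of lymphatic endothelium and podocytes, had 82 control reads and 685 CKO reads. That is 2.72 CPM (2.17 to 3.38) against 16.1 CPM (14.9 to 17.3), a ratio of 5.91 (4.69 to 7.52) and the largest among the 35 expressed endothelial genes. Prox1, the homeobox factor that specifies lymphatic endothelium, had 99 and 309 reads, or 3.29 CPM against 7.26, a ratio of 2.21 (1.75 to 2.80). With the authors' FPKM or a pseudocount of 2 CPM its log2 ratio was under 1. Lyve1, the hyaluronan receptor of lymphatic vessels, had 4 and 5 reads, a ratio of 0.884 with an interval of 0.190 to 4.45, so a difference was not detectable at this depth.

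The other lymphatic genes had smaller ratios than Pdpn and Prox1. Of 6 in the fixed list, all reached 1 CPM, none (0) was 2-fold apart in either direction, and the median log2 ratio was 0.47. Stab2, a scavenger receptor, had a ratio of 1.58 (1.29 to 1.93), the valve factor gene Foxc2 1.55 (1.21 to 1.99), and the integrin gene Itga9, with the most reads, 1.46 (1.31 to 1.63). Reln had 1.40 (1.05 to 1.90). For Mmrn1, at 1.21 (0.762 to 1.95), and Ccl21a, at 0.738 (0.522 to 1.05), the counting interval included 1. Podocytes also make Pdpn, and none (0) of 7 podocyte markers was 2-fold apart, with a median of 0.07 and a summed level of 428 CPM in control and 435 in the CKO library. Synpo, an actin-associated protein gene, had a ratio of 1.28, while Podxl, the podocyte marker with the most reads, had 1.04. The injured tubule markers, whose summed level is given above, were all higher, and their part in the Pdpn and Prox1 values was not tested.

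Genes of the wider vascular network gave a mixed picture. The 21 other pan-endothelial genes all reached 1 CPM, none (0) was 2-fold apart on the log2 scale used here, and their median was 0.36. Ecscr, a surface protein of endothelial migration, had a ratio of 2.0 (1.63 to 2.47), and Vwf, the von Willebrand factor gene, had 32 and 96 reads, a ratio of 2.12 (1.41 to 3.27). Podxl, with the most reads of them, is also a podocyte gene. When the median of these 21 genes was set to 0, a scale chosen after the data had been seen, the median of the 35 endothelial genes became -0.23, Prox1 no longer reached 2-fold, and Esm1 was 2-fold lower. Of 14 expressed ligand and decoy genes, 2 passed 2-fold upwards (14.3%, against 10.3% of all expressed genes) and none (0) downwards, with a median of 0.48. The 2 were the angiogenesis inhibitors Thbs1, with a ratio of 2.99 (2.80 to 3.19), and Thbs2, with 2.63 (2.23 to 3.12). Both were among the 12 of this list that reached 1 CPM in both libraries.

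The vessel segment lists rested on few genes each. Of 6 expressed glomerular endothelial genes, Fbln2, a matrix fibulin, was 2.58-fold higher and Lpl, the lipoprotein lipase gene, 2.02-fold lower. Lpl also had the most reads of the list, and other kidney cells make it too. Of 8 peritubular and vasa recta genes, Rgcc, a cell cycle regulator, was 3.27-fold higher, Slc14a1, the urea transporter of descending vasa recta, had a log2 ratio of 0.99, and Cd36, a fatty acid carrier of capillaries and tubules, one of -0.97. Igfbp5, with the most reads there, had -0.24. Of 9 arterial genes, 1 was 2-fold higher, the Notch ligand gene Jag1 at 2.07-fold (1.88 to 2.29). Next came the kinase gene Bmx at a log2 ratio of 0.69, which reached 1 CPM in the CKO library alone. The chemokine gene Cxcl12, with the most reads of the list, was 1.52-fold higher.

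Of 3 expressed venous genes, Vcam1, an adhesion gene of activated endothelium and of injured tubule cells, was 12.2-fold higher (10.7 to 13.9). The others were Ephb4, a venous ephrin receptor gene, at 1.42-fold, and Nr2f2, a venous identity factor gene with the most reads and a ratio of 0.919. Of 9 expressed flow-responsive and anticoagulant genes, 2 passed 2-fold upwards (22.2%, against 10.3% of all expressed genes) and none (0) downwards, with a median of 0.44. Edn1, which encodes the vasoconstrictor endothelin 1, had 28 and 296 reads, a ratio of 7.48 (5.07 to 11.4). It reached 1 CPM in the CKO library alone. The flow-induced factor gene Klf4 had a ratio of 2.18 (1.87 to 2.55). Ece1, the endothelin-converting enzyme gene, with the most reads of them, had a ratio of 1.11. Other kidney cells make Edn1 and Klf4 as well.

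**Figure D4:**
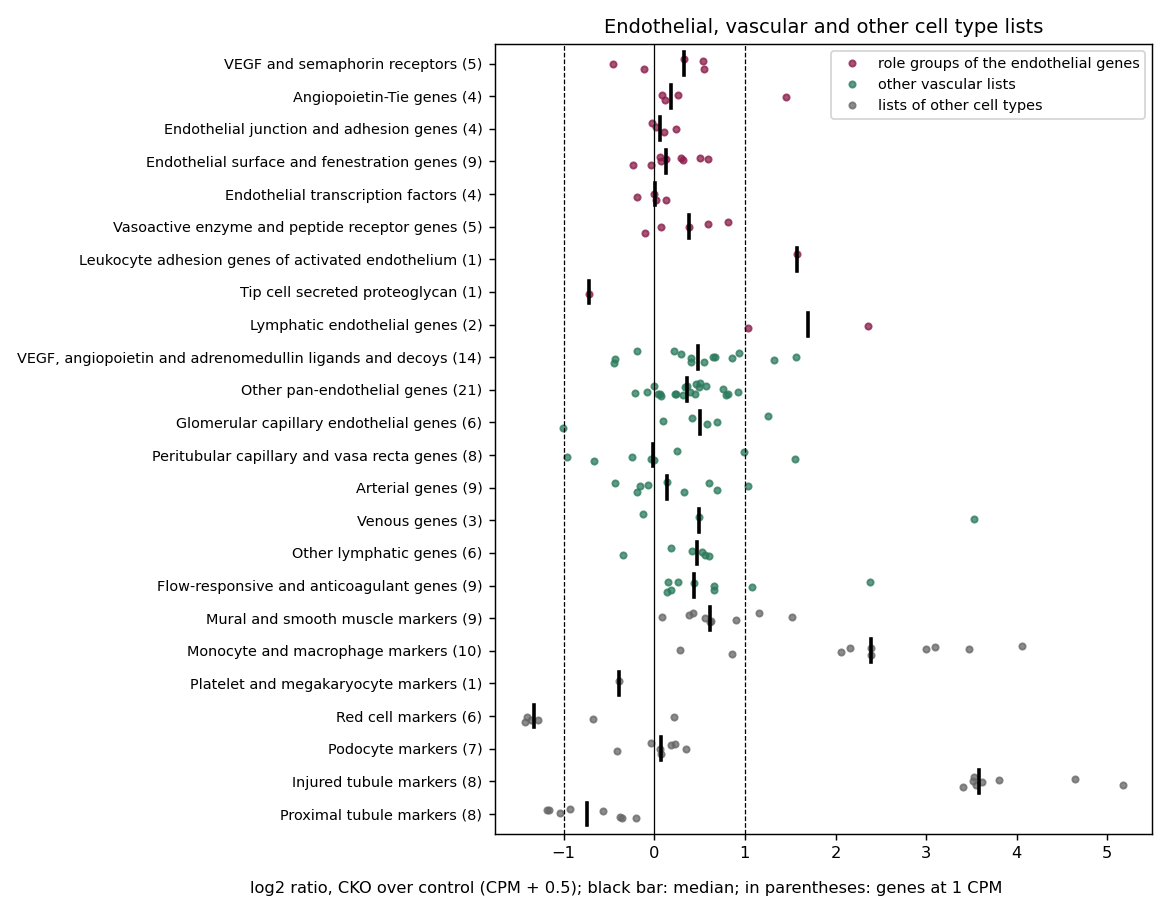
Log2 ratios of CKO over control (CPM + 0.5) for the genes at 1 CPM in each endothelial role group (dark red), in other vascular lists (green) and in lists of other cell types (grey), with a black bar at each median and dashed lines at 2-fold. Junction, surface and transcription factor genes sit near 0, whereas injured tubule (median 3.58) and macrophage markers (median 2.39) lie far to the right and red cell markers (median -1.32) to the left. Only 4 of the 8 injured tubule markers reached 1 CPM in both libraries.

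Markers of cells in and around vessels differed between the libraries. Of 9 mural and smooth muscle markers, 2 were at least 2-fold higher, Tagln with a ratio of 2.92 and Acta2 with 2.26, both actin-binding or actin genes of contractile cells. That is 22.2%, against 10.3% of all expressed genes, and the median of the 9 was 0.62. Pdgfrb, the pericyte receptor gene with the most reads of them, had a ratio of 1.34, and the summed level was 249 CPM in control and 388 in the CKO library. Of 6 red cell markers, 4 were at least 2-fold lower, with a median of -1.32, led by the globin genes Hba-a2 (2.7-fold lower) and Hba-a1 (2.67-fold lower), which are near-identical copies. Their summed level was 542 CPM in control and 236 in the CKO library, and none was at 0. Slc4a1, an anion exchanger that acid-secreting tubule cells also make, was the 1 red cell marker above 0, at 0.21. The part of blood in the endothelial values was not tested.

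**Figure D5:**
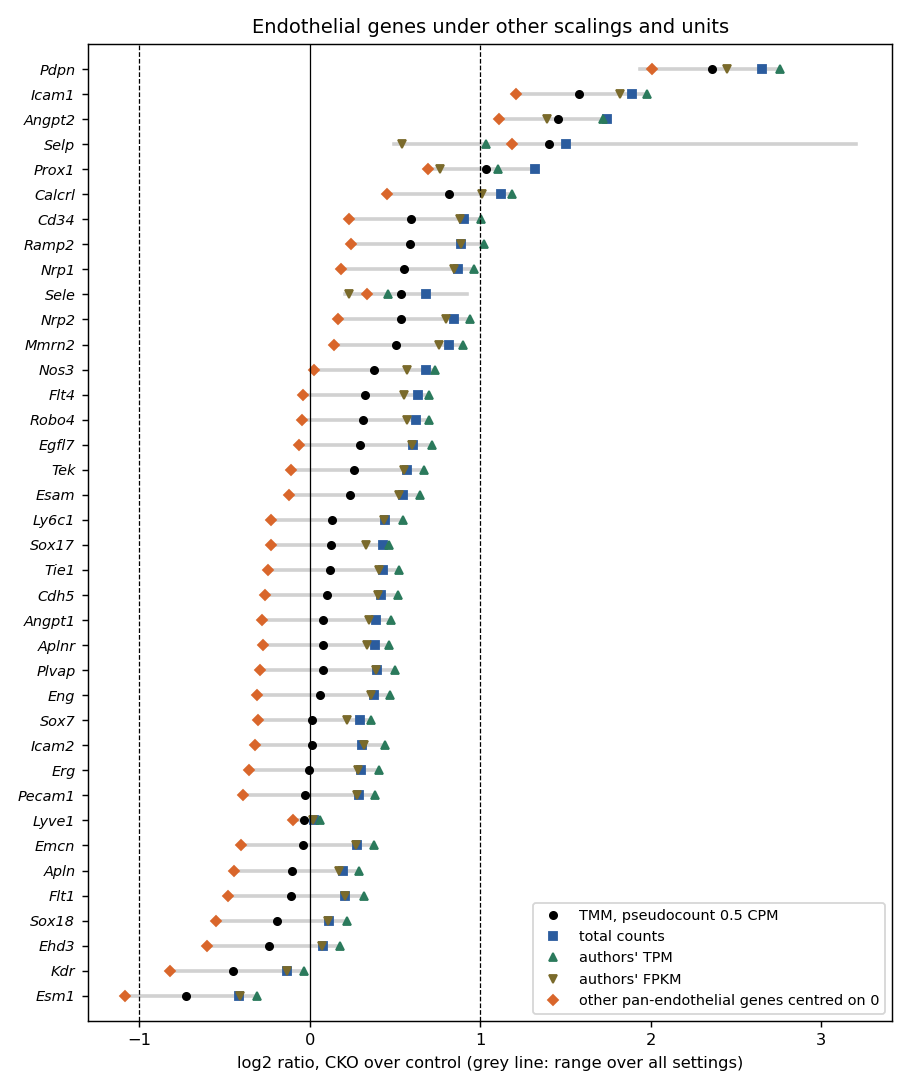
Log2 ratio of each endothelial gene under TMM (black), total counts (blue), the authors' TPM (green) and FPKM (brown), and with the other pan-endothelial genes centred on 0 (orange), with a grey line for the range over every setting tried. Esm1 and Kdr stay left of 0 and Pdpn, Icam1 and Angpt2 stay right of 1 in the 5 settings marked, while Pecam1, Emcn, Erg and Cdh5 cross 0. Kdr comes as near to 0 as -0.03, with the authors' TPM.

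The direction of the genes near the middle depended on the scale. Of the 38 genes, 23 changed sign between settings, 13 stayed above 0 and 2 (Esm1 and Kdr) stayed below 0. The 13 were Pdpn, Icam1, Angpt2, Selp, Prox1, Calcrl, Cd34, Ramp2, Nrp1, Sele, Nrp2, Mmrn2 and Nos3. With total counts the median of the 35 became 0.43 and that of all expressed genes 0.32. The gap between the endothelial median and the median of all expressed genes was 0.12 with TMM and with total counts, and 0.13 with the authors' TPM. It ranged from 0.06 without a minimum level to 0.20 with a minimum of 10 CPM.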

How the data were processed

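RNA from whole kidneys was sequenced in 1 control and 1 CKO library. A TruSeq Stranded mRNA kit was used, per the labels' protocols. As tools, the submitters' processing notes list edgeR, DESeq2, HTSeq, FastQC, Cufflinks 2.2.1 and STAR 2.7.3a, without roles, and mm10 as the build. The authors deposited raw read counts per gene, with FPKM and TPM values in the same table per the file headers. A second deposited table holds normalized signal values for 19550 genes, those with reads in each library, each equal to its read count over a constant (30.1 for control, 42.6 for CKO).

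TMM scaling of the counts (edgeR 4.0.16, R 4.3.3) gave factors of 0.896 and 1.12. The effective sizes were 30.1 and 42.6 Mreads, so 3 reads correspond to 0.0996 and 0.0705 CPM. Genes with 1 CPM in either library were called expressed, and the threshold was 2-fold on the log2 scale with a pseudocount of 0.5 CPM. Intervals are exact 95% Poisson intervals for levels, Clopper-Pearson intervals for ratios, from the share of a gene's reads that the CKO library holds, and conditional odds ratio intervals for ratios within libraries. PCR duplicates are not identified, so intervals and floors cover counting error only. Python 3.11.15 with scipy 1.17.1 was used, and DESeq2 1.42.0 gave alternative size factors. The steps were tested on simulated counts. Coordinates and overlaps are those of RefSeq GRCm38.p6, matched by gene ID.

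The members and the gene lists (9 role groups, 8 vascular lists, 7 lists of other cells) were chosen with earlier results of these data known. Named genes were the members past 2-fold, the member of each role with the most CPM, members with few reads, and from each list the 2 largest log2 ratios and the gene with the most CPM, with further members and pathway genes (Vegfa, Adm, Cldn5, Clec14a) named for their role. One gene that this rule selects is not reported here. In all, 14 alternatives were tried, 13 of them planned.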

Additional observations from a re-analysis of the deposited data

How the results depend on the processing

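No paired analysis was possible because each group has 1 library, and for the same reason no library could be left out. The 4 genes at least 2-fold higher became 5 with total counts or with no minimum level, 6 with total counts without mitochondrial and the 50 most abundant genes, 7 with the authors' TPM, 7 at 1.5-fold, 3 with a pseudocount of 2 CPM and 2 with a minimum of 10 CPM, a level that Angpt2 and Prox1 do not reach. With the median of other pan-endothelial genes set to 0, an alternative added after the data were seen, 3 were higher. None (0) was at least 2-fold lower, except 1 (Esm1) at 1.5-fold and 1 (Esm1) with that added alternative. The median log2 ratio of 0.13 became 0.43 with total counts, 0.32 without the most abundant genes, 0.40 with FPKM, 0.53 with TPM and -0.23 with the added alternative, and the median of all expressed genes moved along, to 0.32, 0.21, 0.26, 0.40 and -0.36. No member past 2-fold changed sign. Of 379 values of single members under alternatives, 220 lay within the counting interval of the main value and 159 outside it. Depth limits Sele, Selp and Lyve1, with 35 reads or fewer in each library.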
